A study of Sus scrofa with 32 samples.

Results

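Albumin (ALB) and alpha-fetoprotein (AFP), secreted plasma proteins of the liver, were followed as transcripts in fetal pig liver. Their probes were found through the RefSeq transcript accession in the array design, NM_001005208 for pig ALB and NM_214317 for pig AFP. They are 2 of 1904 gene symbols that could be matched on the array, and 4 of its 43603 non-control probes report them. The probes are A_72_P165481 and A_72_P175281 for ALB, and A_72_P056601 and A_72_P004546 for AFP. All 4 were well above background on all 32 arrays, and none of their spots was called an outlier or saturated.

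Livers labelled runt or control were collected at gestational days 37, 50, 70 and 110, with 4 runt and 4 control samples at each day, which gives 8 groups. All fetuses, controls included, came from artificially inseminated gilts with unilateral removal of the uterus and ovary, a surgery that crowds the uterus and yields growth-retarded offspring (IUGR in the labels). The protocols speak of 4 littermate pairs from different gilts, but no label ties a replicate number to a litter. Breed, sex and fetal weight are not given in the sources used here, and some protocol fields write PND before the same day numbers that the titles give as gestational days.

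Albumin is the main protein of adult plasma, is made by hepatocytes, carries fatty acids, bilirubin and hormones, and holds most of the osmotic pressure of plasma proteins. AFP is its fetal relative, made by the yolk sac and the fetal liver, and in mammals its gene is largely switched off in the liver after birth. Both genes arose by duplication, lie next to each other, and share liver activators, while in mice ZHX2 and ZBTB20 are known repressors of AFP after birth. In the RefSeq pig annotation the order was LOC110261978, ALB, AFP and AFM, the gene of afamin. AFM and GC, which encodes the vitamin D-binding protein, were not analysed here.

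The arrays were single-colour scans, and well above background were 51.3% to 69.4% of the non-control spots, depending on the array. A level is a spot's log2 signal after subtracting the log2 signal at its array's 75th percentile. A level of 0 thus equals that percentile, and levels of different probes are not set against each other. The day of gestation had its own position on the slides, apart from 1 array, so day and array position cannot be told apart. Runt and control livers of a day lay on different slides. Slides 1 to 3 held 12 arrays and slides 4 to 9 held 20, with both fetus types in each set. Of 27 measured genes of other hepatocyte plasma proteins, 26 were well above background on all 32 arrays. Of 6 pancreas genes on the array, INS and GCG, hormones of the pancreas, were above it on none and PNLIP on 1. CPA1 was above it on 22 arrays, PLA2G1B on 31 and CELA2A on 32. Among gut, kidney and muscle genes, TNNT1, CKM and MYOG were above it on all 32 arrays, SLC34A1 on 18 and FABP2 on 3.

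ALB was lower in runt livers than in control livers early in gestation. On probe A_72_P165481 the runt livers were 5.80-fold lower at day 37 and 6.63-fold lower at day 50. Later the differences were 1.28-fold at day 70 and 1.42-fold at day 110, in the same direction. Averaged over the 4 days the runt livers were 2.89-fold lower, and this mean passed the test, while neither early day passed alone on that probe. In bulk liver, fewer cells of a type and less RNA per cell cannot be told apart. At days 37 and 50, AFP differed by 0.12 and 0.33, and 27 other plasma protein genes of hepatocytes had median differences of 0.11 and 0.18.

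At day 37 the ALB levels of A_72_P165481 were 3.56, 4.55, 5.04 and 1.56 in runt livers, against 7.11, 6.31, 5.70 and 5.73 in control livers. At day 50 they were 4.43, 3.47, 5.84 and 5.65 in runt livers, against 8.13, 7.61, 7.24 and 7.31 in control livers. At both days every runt liver lay below every control liver, and the runts were spread more widely, with day 37 runt replicate 4 the lowest of all arrays. Without that liver the runt minus control difference at day 37 was -1.83, against -2.54 with it. At day 70 the levels were 8.03, 7.44, 6.12 and 7.54 in runt livers, against 8.71, 7.82, 7.18 and 6.85 in control livers. At day 110 they were 7.24, 7.69, 6.95 and 6.51 in runt livers, against 8.03, 7.65, 7.87 and 6.85 in control livers. At these later days the groups overlapped. Random labels would set 4 against 4 arrays wholly apart with a probability of 0.0286. The share of all features with groups so set apart was not counted.

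The second ALB probe, A_72_P175281, gave day 37 levels of 1.20, 2.48, 3.52 and 0.29 in runt livers, against 5.02, 4.00, 4.71 and 4.11 in control livers. At day 50 it gave 1.36, 1.19, 3.84 and 3.90 in runt livers, against 6.60, 5.56, 6.07 and 7.06 in control livers. The groups were again apart at both days. At day 110 this probe read 5.72, 5.68, 5.61 and 5.71 in runt livers, against 6.47, 6.61, 6.84 and 6.22 in control livers, and here too the runt livers all lay below the controls. At day 70 it ranged from 4.06 to 6.96 in runt livers and from 6.20 to 7.76 in control livers, and the groups overlapped.

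**Figure D1:**
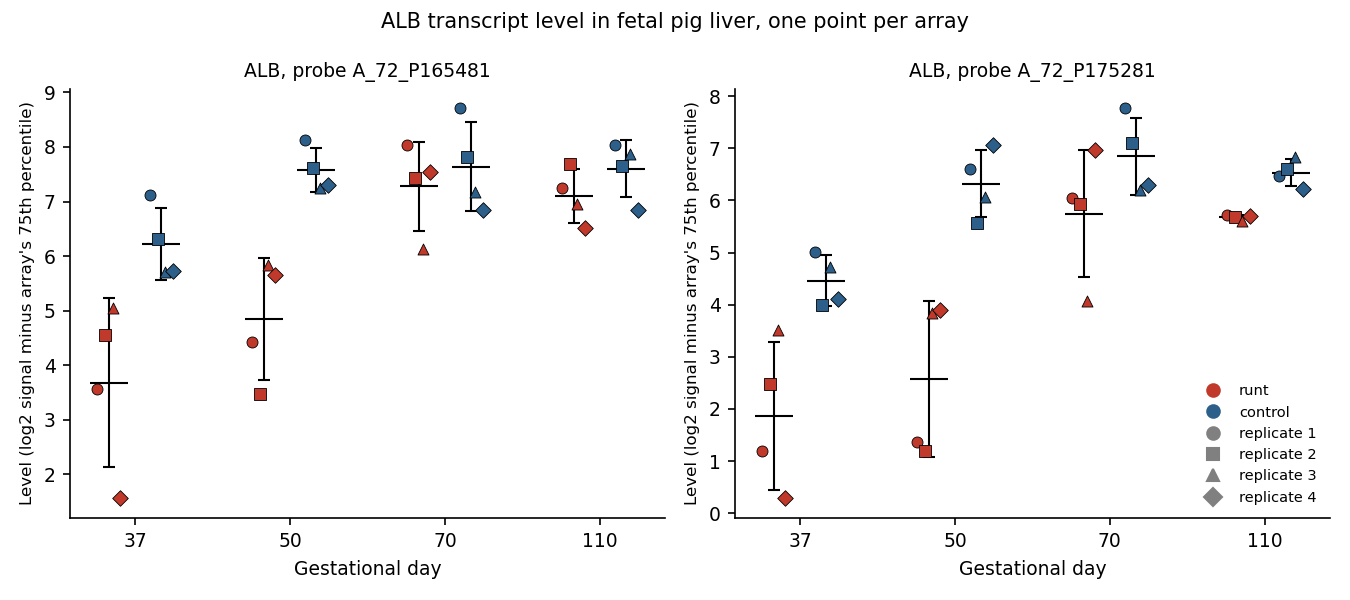
ALB level per array (y axis, log2 signal minus the array's 75th percentile) by gestational day (x axis), runt in red left of control in blue, a panel for each probe, with bars for mean ± SD (n = 4). At days 37 and 50 all runt points lie below all control points on both probes, and at day 70 the groups overlap.

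The limma fit over all 28673 features gave a runt minus control difference on A_72_P165481 of -2.54 at day 37 (95% interval -3.74 to -1.33, adjusted p = 0.777). At day 50 the limma difference was -2.73 (95% interval -3.94 to -1.52, adjusted p = 0.0663). Neither passed an adjusted p under 0.05, although both intervals of the single gene lay below 0. By the same test 0 features (0%) passed at day 37, where 715 had an unadjusted p under 0.05, and 19 (0.0663%) passed at day 50. By size of difference ALB ranked 7 of 28673 features at day 37 and 25 at day 50.

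On the second probe, A_72_P175281, the limma differences were -2.59 at day 37 (adjusted p = 1.00) and -3.75 at day 50 (adjusted p = 0.0108). The day 50 difference passed on this probe, a 13.4-fold lower level in runt livers. With A_72_P165481 the day 50 difference also passed under normexp background correction (-3.48, adjusted p = 0.00911), and over the limma alternatives its adjusted p ran from 0.00911 to 1.00. Leaving out day 50 runt replicate 3 brought it to -3.06 and past the threshold (adjusted p = 0.0259).

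The later differences were smaller. At day 70 the difference on A_72_P165481 was -0.36 (95% interval -1.57 to 0.85, limma adjusted p = 1.00), and at day 110 it was -0.50 (95% interval -1.71 to 0.71, limma adjusted p = 1.00). The number of features that passed was 0 (0%) at day 70, with 522 at an unadjusted p under 0.05, and 4 (0.0140%) at day 110. On A_72_P175281 the differences were -1.09 at day 70 and -0.85 at day 110, and neither passed.

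The mean difference over the 4 days was -1.53 on A_72_P165481 (SE 0.29, 95% interval -2.14 to -0.93, limma adjusted p = 0.0227) and -2.07 on A_72_P175281 (SE 0.32, limma adjusted p = 0.00629). In this comparison 70 features passed (0.244%), of which 22 were lower in runt livers (0.0767%). An exact two-sided permutation of runt and control labels within days gave p = 9.95e-05 for the mean on A_72_P165481. Within slides 4 to 9 the mean was -1.77 (limma adjusted p = 0.0608) and with slide as a fixed block it was -1.44 (limma adjusted p = 0.124), so it did not pass in either, while the direction stayed. Within slides 1 to 3, where 1 of the fetus types has a single array at every day, it was -0.91.

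Within slides 4 to 9 the day 37 difference in ALB was -2.32 and the day 50 difference -3.30. Within slides 1 to 3 they were -2.43, from 2 runt arrays and 1 control array, and -1.63, from 1 runt array and 2 control arrays. The slide sets were not tested against each other.

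The runt difference in ALB was larger at the early days than at the late days by its values, but this contrast did not pass. The F-test for a runt difference that changes with day gave F = 4.69 on A_72_P165481 (unadjusted p = 0.00927, limma adjusted p = 1.00), and 1 feature (0.00349%) passed it. From day 50 to day 70 the runt difference shifted by 2.37 (SE 0.83, limma adjusted p = 0.999), and at day 110 it was 2.03 above that at day 37 (SE 0.83, limma adjusted p = 1.00).

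AFP did not differ detectably between runt and control livers at any day. On probe A_72_P056601 the runt minus control differences were 0.12 at day 37, 0.33 at day 50, 0.15 at day 70 and 0.14 at day 110. The mean over the 4 days was 0.19 (SE 0.15, 95% interval -0.12 to 0.49, limma adjusted p = 0.794). Under normexp the mean was -0.15, and on A_72_P004546 it was 0.06, so no direction is given.

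At day 37 the AFP levels of A_72_P056601 were 9.85, 9.53, 9.41 and 9.38 in runt livers, against 9.97, 9.43, 9.21 and 9.07 in control livers. At day 50 they were 10.95, 9.72, 9.59 and 9.20 in runt livers, against 9.91, 9.64, 9.45 and 9.14 in control livers. The groups overlapped at both days, and day 50 runt replicate 1 stood alone at the top. It was also the lone array of slide 9. At day 70 the levels were 10.19, 9.71, 9.60 and 9.38 in runt livers, against 10.08, 9.84, 9.22 and 9.16 in control livers. At day 110 they were 9.55, 9.43, 8.79 and 8.88 in runt livers, against 9.63, 8.70, 8.86 and 8.90 in control livers. Runts and controls overlapped at these days as well.

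**Figure D2:**
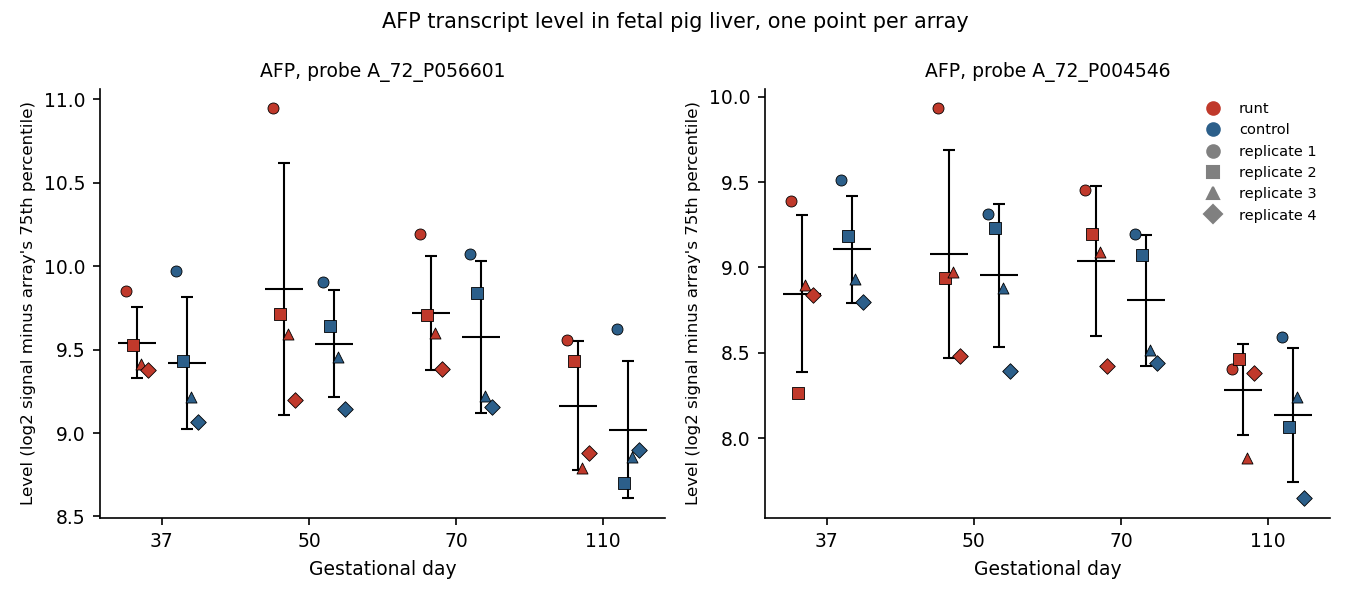
AFP level per array (y axis, log2 signal minus the array's 75th percentile) by gestational day (x axis), runt in red left of control in blue, a panel for each probe, with bars for mean ± SD (n = 4). Runt and control points overlap at every day, and the highest point of A_72_P056601 is day 50 runt replicate 1 at 10.95.

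The second AFP probe, A_72_P004546, ranged from 8.26 to 9.39 in runt livers and from 8.80 to 9.51 in control livers at day 37. At day 110 it ranged from 7.88 to 8.46 in runt livers and from 7.65 to 8.59 in control livers. The groups overlapped at all 4 days on this probe, and its mean runt minus control difference was 0.06 (SE 0.15, limma adjusted p = 0.963). AFP signals stayed below the scanner's ceiling: the highest was 499000, against a saturation value of 779847 or above.

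**Figure D3:**
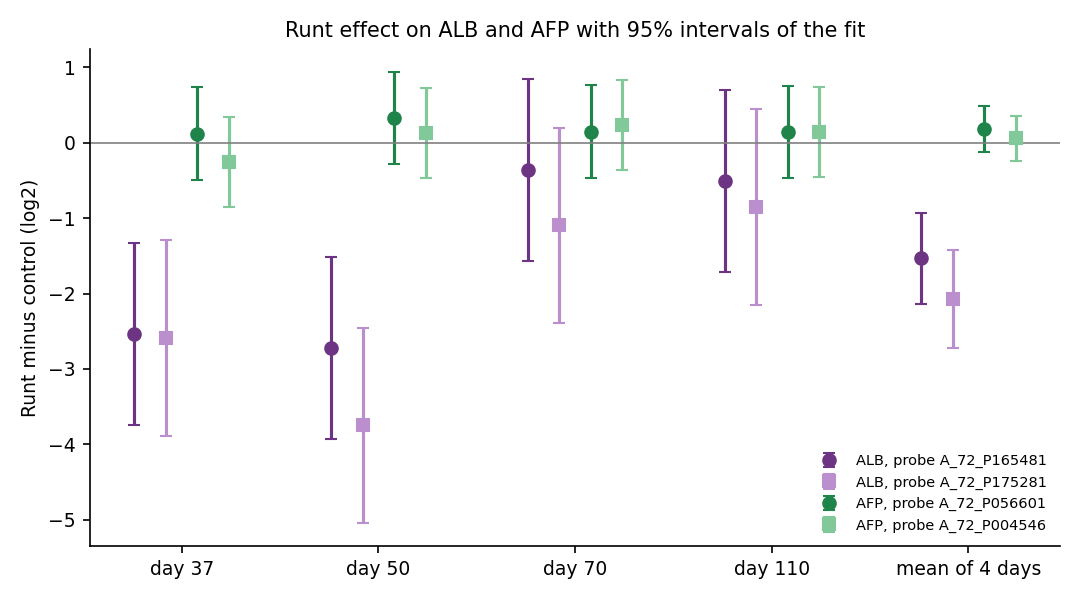
Runt minus control difference (y axis, log2) for each probe of ALB (purple) and AFP (green) at each day and as the mean of 4 days (x axis), with 95% intervals of the limma fit. The ALB intervals at days 37 and 50 lie below 0 on both probes, and every AFP interval spans 0.

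ALB rose over gestation in both fetus types. In runt livers it was 3.42 higher on the log2 scale at day 110 than at day 37, with a step of 1.17 at day 50 against day 37 and of 2.44 at day 70 against day 50. In control livers ALB was 2.61-fold higher at day 110 than at day 37, with a level already near its later value at day 50. AFP differed by less than 2-fold between the days compared, on both probes.

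In runt livers ALB on A_72_P165481 averaged 3.68 ± 1.54 at day 37, 4.85 ± 1.11 at day 50, 7.28 ± 0.81 at day 70 and 7.10 ± 0.50 at day 110 (SD, n = 4). The day 70 runts all lay above the day 50 runts. The limma change of day 70 against day 50 was 2.44 (SE 0.59, adjusted p = 0.00354), a 5.41-fold rise that passed the test, as did 7.96% of all features, 3.20% upward. The change of day 110 against day 37 was 3.42 (SE 0.59, limma adjusted p = 2.29e-05), in a comparison where 27.1% of features passed, with 14.9% higher and 12.2% lower at day 110. Both rises were also past the threshold on A_72_P175281, at 3.17 and 3.81.

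With slide as a fixed block the runt change of day 70 against day 50 was 1.88 (limma adjusted p = 0.0609), so it did not pass there. Its limma adjusted p ran from 0.000753 to 0.603 over the alternatives. Within slides 1 to 3, with 1 runt array at each of days 50 and 70, this change was 1.89 and that of day 50 against day 37 was 2.35, so the order of the steps was the other way round. Without day 37 runt replicate 4 the change of day 110 against day 37 was 2.71 (limma adjusted p = 0.00015). The runt changes of day 50 against day 37 (1.17, limma adjusted p = 0.185, with 5.82% of features passing) and of day 110 against day 70 (-0.18, limma adjusted p = 0.862, with 11.1% passing) did not pass.

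In control livers ALB on A_72_P165481 averaged 6.22 ± 0.66 at day 37, 7.57 ± 0.41 at day 50, 7.64 ± 0.82 at day 70 and 7.60 ± 0.53 at day 110 (SD, n = 4). The day 50 controls all lay above the day 37 controls. That change of 1.36 did not pass (SE 0.59, limma adjusted p = 0.163, with 3.41% of features passing). The change of day 110 against day 37, 1.39, passed narrowly (SE 0.59, limma adjusted p = 0.0493), as did 29.3% of features, with 15.0% higher and 14.3% lower at day 110. On A_72_P175281 it was 2.07 (limma adjusted p = 0.00732).

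The control call lay close to the threshold. Without day 37 control replicate 2, 3 or 4, or without day 110 control replicate 1, 2 or 3, the change was 1.22 to 1.42 and its limma adjusted p lay between 0.0725 and 0.118. It also exceeded 0.05 with normexp (change 1.31, adjusted p = 0.118), with no filter on dim probes (1.39, adjusted p = 0.0712) and with slide as a fixed block (1.65, adjusted p = 0.0564). Over the limma alternatives it ran from 0.00732 to 0.609, the highest from slides 1 to 3 with 1 control array at each of these days.

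The other control steps were small. ALB changed by 0.07 at day 70 against day 50, where 7.69% of features passed and 2.83% rose, and by -0.04 at day 110 against day 70, where 12.4% passed. Neither change passed in limma. The F-test over the 4 days passed in runt livers (F = 17.8, limma adjusted p = 1.01e-05, with 60.7% of features passing) and not in control livers (F = 2.79, limma adjusted p = 0.0894, with 60.2% passing). The second probe passed it in both.

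From the highest to the lowest mean, the ALB groups of A_72_P165481 ran control day 70, control day 110, control day 50, runt day 70, runt day 110, control day 37, runt day 50 and runt day 37. Livers of each neighbouring pair in this order overlapped on that probe. The second probe gave the same order, but not the same overlap. There all runt day 110 livers (5.61 to 5.72) lay above all control day 37 livers (4.00 to 5.02). These in turn lay above all runt day 50 livers (1.19 to 3.90).

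AFP on A_72_P056601 averaged 9.54 ± 0.22 at day 37, 9.86 ± 0.75 at day 50, 9.72 ± 0.34 at day 70 and 9.17 ± 0.39 at day 110 in runt livers (SD, n = 4). In control livers it averaged 9.42 ± 0.40, 9.54 ± 0.32, 9.57 ± 0.46 and 9.02 ± 0.41 at the same days. The lowest means of both fetus types were those of day 110, and neighbouring groups in the order of means overlapped throughout.

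The change of AFP at day 110 against day 37 was -0.38 in runt livers (SE 0.30, limma adjusted p = 0.307) and -0.40 in control livers (SE 0.30, limma adjusted p = 0.269). On A_72_P004546 the same change was -0.56 in runt livers (limma adjusted p = 0.110) and -0.97 in control livers (SE 0.29, limma adjusted p = 0.00650). That control change had an adjusted p under 0.05 but stayed under 2-fold, so it did not pass both thresholds. The day 110 controls all lay below the day 37 controls on A_72_P004546, and overlapped them on A_72_P056601.

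An F-test over the 4 days did not pass for AFP on A_72_P056601 in runt livers (F = 2.03, limma adjusted p = 0.177) or in control livers (F = 1.43, limma adjusted p = 0.309). With slide as a fixed block it passed in runt livers (F = 4.59, limma adjusted p = 0.0275) and in control livers (F = 7.59, limma adjusted p = 0.00412). On A_72_P004546 it passed in control livers without a block (F = 4.33, limma adjusted p = 0.0246).

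The change of AFP relative to ALB was followed as the log2 level of A_72_P056601 minus that of A_72_P165481 on the same array. Only changes of this difference between groups are read, since its size also holds how brightly each probe binds. It averaged 5.86 ± 1.53 in runt livers and 3.20 ± 0.28 in control livers at day 37, and 5.02 ± 1.58 in runt livers and 1.96 ± 0.20 in control livers at day 50 (SD, n = 4 each). At both days all runt values lay above all control values. At day 70 it averaged 2.44 ± 0.72 in runt livers and 1.93 ± 0.40 in control livers, and at day 110 it averaged 2.07 ± 0.32 in runt livers and 1.42 ± 0.50 in control livers, with overlap at both days.

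Exact two-sided permutation tests were run for 7 comparisons of this difference, and 0.0286 is the smallest p that 4 against 4 arrays can give. The runt minus control value was 2.66 at day 37 and 3.06 at day 50, each with exact p = 0.0286 and adjusted p = 0.04. At day 70 it was 0.50 (exact p = 0.343, adjusted p = 0.343) and at day 110 it was 0.65 (exact p = 0.114, adjusted p = 0.133). The mean over the days was 1.72 (exact p = 6.41e-06, adjusted p = 4.49e-05). ALB alone on A_72_P165481 had the same exact p = 0.0286 at days 37 and 50. Its adjusted p in the exact test was 0.124, over 26 comparisons instead of 7. AFP relative to ALB was lower at day 110 than at day 37, by -3.80 in runt livers and by -1.79 in control livers, each with exact p = 0.0286 and adjusted p = 0.04. Leaving out any 1 of control replicates 1 to 4 at day 37 or at day 50 brought the exact test of that day to an adjusted p of 0.08, with differences of 2.54 to 2.76 at day 37 and 2.99 to 3.14 at day 50. The smallest p that the test can give is the same with 1 array fewer. Leaving out 1 runt array of that day instead kept the adjusted p at 0.04.

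**Figure D4:**
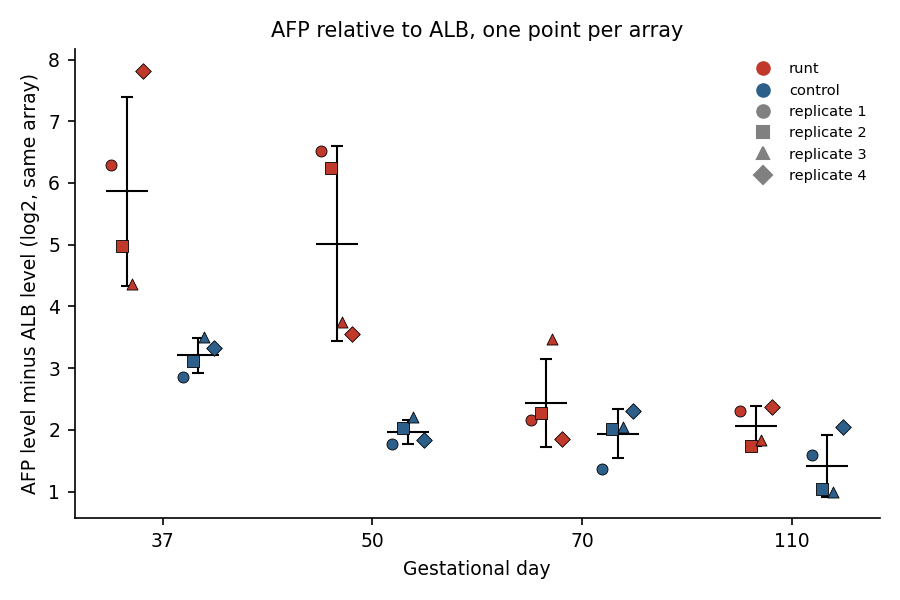
AFP level minus ALB level on the same array (y axis, log2, probes A_72_P056601 and A_72_P165481) by gestational day (x axis), runt in red left of control in blue, with bars for mean ± SD (n = 4). Runt points lie above control points at days 37 and 50, and the groups overlap at days 70 and 110.

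A relation between ALB and AFP among replicates of a group was not shown. Over 32 arrays, the deviations of A_72_P165481 and A_72_P056601 from their group means had Pearson r = 0.26 (permutation p = 0.223, adjusted p = 0.223 over 3 relations) and Spearman rho = 0.36 (permutation p = 0.0696, adjusted p = 0.0696). Without the 2 arrays farthest from the median of ALB, r was 0.25. Within slides 1 to 3 it was -0.27 and within slides 4 to 9 it was 0.24. It was -0.015 among the 16 runt arrays and 0.83 among the 16 control arrays, a difference that was not tested. The probes of one gene deviated together, with r = 0.82 and rho = 0.79 for ALB (permutation p = 8e-05, adjusted p = 0.00012) and r = 0.86 and rho = 0.85 for AFP (permutation p = 1e-05, the smallest these permutations can give, adjusted p = 3e-05).

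AFP deviations had different means on different slides. Replicate 1 held the highest AFP level of A_72_P056601 in 8 of 8 groups, and replicate 4 the lowest in 6 of 8. The mean AFP deviation was -0.23, -0.32 and -0.36 on slides 1, 2 and 3, against 0.47 on slide 4 and 0.45 on slide 5. On slides 6, 7 and 8 it was 0.09, -0.05 and -0.19. The lone array of slide 9 deviated by 1.08. The part of slide in the AFP spread was not tested beyond the fits with slide as a block.

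The genes whose level followed ALB most closely over the 32 arrays, among 1270 named genes well above background on every array, were CDH1 (r = 0.84), ALDH2 (0.83), LBP (0.79), MAL2 (0.78) and IL18 (0.78). CDH1 is the epithelial adhesion protein E-cadherin, ALDH2 the mitochondrial aldehyde dehydrogenase, LBP the secreted lipopolysaccharide-binding protein, and IL18 a cytokine. The most opposed were MNAT1 (r = -0.81), CAMK2D (-0.76), MDH1 (-0.75), FST (-0.72), the activin-binding protein follistatin, and GNG12 (-0.69). These correlations carry no test, and their arrays share days, slides and scaling.

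These arrays hold the runt and control groups, so the runt minus control values of such genes are a description only. For LBP they were -0.70 at day 37, -2.44 at day 50 and -0.99 in the mean over the 4 days. The LBP values of day 50 and of the mean passed (limma adjusted p = 0.00464 and 0.0227). For deviations from the group means, the genes nearest to ALB were ALDH2 (r = 0.88), C8A (0.74), a subunit of complement component 8, PTGR1 (0.70), IL18 (0.70) and CDH1 (0.70).

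Among the genes that most closely followed the level of AFP on A_72_P056601 were FTH1, the ferritin heavy chain (r = 0.93), SERPINA1, the plasma protein alpha-1-antitrypsin (0.92), the ribosomal protein gene RPS20 (0.90), and LRRC1 (0.82). Among the most opposed were PTPN1 (r = -0.81), SLC5A1 (-0.80), SAR1B (-0.78) and TLE4 (-0.76). Among the nearest by deviations from the group means were SERPINA1 (r = 0.93), RPS20 (0.93), RPL10 (0.91) and FTH1 (0.91).

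In a list of other hepatocyte plasma proteins, the measured genes had smaller differences between runt and control livers than ALB at days 37 and 50. That list does not hold LBP, a secreted protein whose day 50 and mean differences passed, as given above. Of 45 listed genes 27 were measured, and 0 passed at any day or in the mean in limma, close to the share over all features (0% at day 37, 0.0663% at day 50, 0.244% in the mean). At an unadjusted p under 0.05 there were 3 (11.1%) at day 37, 8 (29.6%) at day 50, 0 at days 70 and 110 and 8 (29.6%) in the mean. The shares of all features in these 5 comparisons were 2.49%, 7.44%, 1.82%, 4.42% and 9.11%, so the list lay above them at days 37 and 50 and in the mean. Their median difference was 0.11 at day 37 and 0.18 at day 50, beside -0.01 and -0.02 over all features. Their differences at day 37 ran from -0.61 for HP, the haemoglobin-binding haptoglobin, to 0.66 for ITIH4, an inter-alpha-trypsin inhibitor chain. At day 50 they ran from -1.78 for C3, the central complement protein (SE 0.44, limma adjusted p = 0.132), to 1.46 for APOA4, an apolipoprotein (SE 0.76, limma adjusted p = 0.701). HP differed by -1.17 at day 50 (SE 0.32, limma adjusted p = 0.204). HP, ITIH4, C3 and APOA4 are named here as the extremes, after their values were seen.

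**Figure D5:**
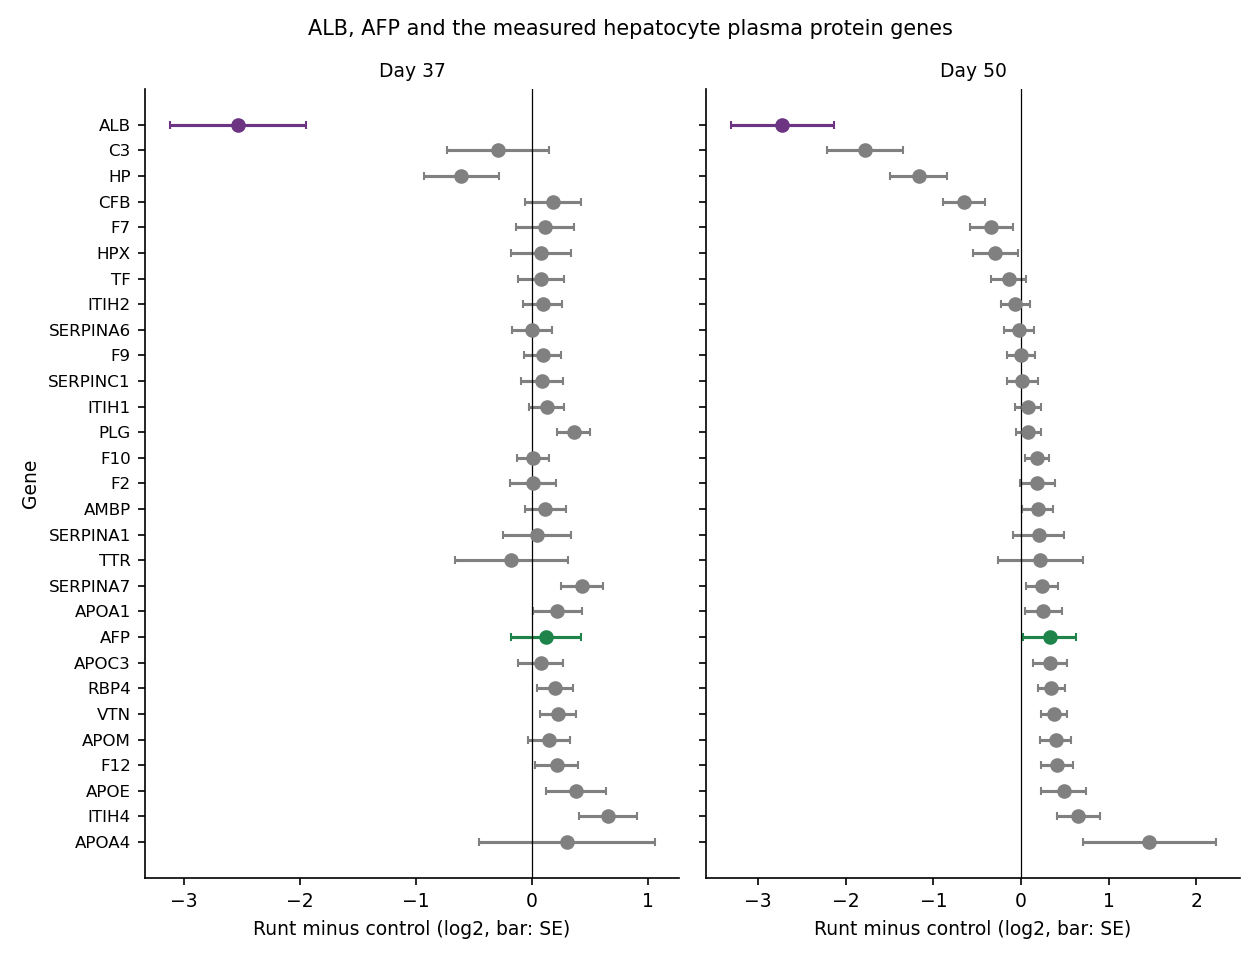
Runt minus control difference (x axis, log2) of ALB (purple), AFP (green) and 27 other plasma protein genes of hepatocytes (grey) at day 37 and day 50, with bars for SE. ALB lies at -2.54 and -2.73, below the 27 other genes at each day, which run from -0.61 to 0.66 at day 37 and from -1.78 to 1.46 at day 50.

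Over gestation many of these plasma protein genes rose. At day 110 against day 37, 12 rose and 1 fell in runt livers, and 11 rose and 1 fell in control livers. Of all features 14.9% rose and 12.2% fell in runts, and 15.0% rose and 14.3% fell in controls. The list medians were 0.84 in runts and 0.87 in controls beside 0.04 and -0.02 over all features. APOA4 rose by 3.28 in runt and 3.57 in control livers, F7, coagulation factor VII, by 2.57 in runt and 2.56 in control livers, and F10, coagulation factor X, by 2.08 in runt and 1.95 in control livers. C3 rose by 2.13 in runt and 1.93 in control livers. SERPINA6, which encodes the cortisol-binding globulin, was the member that fell, by 1.02 in runt and 1.32 in control livers, and is named after its values were seen. At day 70 against day 50, where ALB rose in runts, 4 of the 27 rose in runt livers, beside 3.20% of all features. These were C3 (1.73), CFB (1.51), SERPINA7 (1.07) and HP (1.06). In control livers 1 of the 27 rose, SERPINA7 (1.36), beside 2.83% of all features.

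Known activators of the ALB and AFP genes were tested in the same way. Of 24 listed, 8 were measured, among them HNF4A, ONECUT1, GATA4, GATA6, PROX1 and TBX3, and 0 passed between runt and control livers in limma at any day or in the mean, a count that the share over all features (0% to 0.244%) also gives. At an unadjusted p under 0.05 there were 0 at days 37 and 70, and 1 at day 50, at day 110 and in the mean, where all features had the shares given for the plasma proteins. At day 50 the lowest difference was 0.13, for GATA6, and the median was 0.24 beside -0.02 over all features.

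At day 110 against day 37, 6 of the 8 activators rose in runt livers and 4 in control livers, and 0 fell in either, where 14.9% of all features rose in runts and 15.0% in controls. GATA4 rose by 2.31 in runt and 1.91 in control livers, PROX1 by 1.23 in runt and 1.54 in control livers, and ONECUT1 by 1.35 in runt and 1.07 in control livers. HNF4A (1.11) and TBX3 (1.12) passed in runt livers. At day 70 against day 50, where ALB rose in runts, 0 of the 8 passed both thresholds in runt livers in limma, with 3 at an unadjusted p under 0.05, beside 7.96% and 37.0% of all features.

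Of 8 listed repressors of AFP and the glucocorticoid receptor, 3 were measured, among them ZHX1 and NR3C1, while ZHX2 and ZBTB20 were not analysed here. NR3C1, the glucocorticoid receptor, rose by 1.98 in runt and 1.68 in control livers at day 110 against day 37, and by 1.09 in runt and 1.02 in control livers at day 70 against day 50. None of the 3 passed between runt and control livers in limma, nor did any have an unadjusted p under 0.05. Among fetal liver genes that are silenced after birth, IGF2, DLK1 and MEST were measured of 12, and MEST, an imprinted gene, rose by 1.24 in runt and 1.63 in control livers at day 110 against day 37. For albumin uptake and recycling, FCGRT, the receptor that rescues albumin from breakdown, CAV1 and SPARC were measured of 8. CAV1, the coat protein of caveolae, rose by 2.67 in runt and 3.34 in control livers at day 110 against day 37, and 0 of these 3 passed between runt and control livers in limma, with 0 at an unadjusted p under 0.05.

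Markers of other cells moved strongly with gestation. Of 52 measured markers in 11 lists, 26 rose and 10 fell in runt livers at day 110 against day 37, and 21 rose and 11 fell in control livers. Of all features 14.9% rose and 12.2% fell in runts, and 15.0% rose and 14.3% fell in controls. All 4 measured erythroid markers (HBE1, EPOR, RHCE and TFRC) fell in both, with medians of -4.57 in runts and -4.08 in controls. Kupffer cell and monocyte markers rose, 7 of 7 in runts and 6 of 7 in controls, with a median of 3.66 in each. The part of this shift in the ALB and AFP courses was not tested.

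Between runt and control livers 0 of the 52 markers passed in limma at any day. An unadjusted p under 0.05 was found for 3 (5.77%) at day 37, 5 (9.62%) at day 50, 2 (3.85%) at day 70 and 6 (11.5%) at day 110. Of all features 0% to 0.0663% passed at a day, and 2.49%, 7.44%, 1.82% and 4.42% had such a p. The summed signal of the 4 erythroid markers, in units of the array's 75th percentile, ranged from 94.0 to 123 in runt livers and from 86.8 to 149 in control livers at day 37. At day 50 it ranged from 58.5 to 102 in runt livers and from 99.3 to 112 in control livers, which overlap. The sum of the 5 measured bile duct markers averaged 13.8 in runt livers and 13.5 in control livers at day 37, and 14.7 in runt livers and 13.1 in control livers at day 50, and the livers overlapped at both days. By gene, 4 of the 5 were lower in runt livers at day 50, with a median of -0.79. No bile duct marker passed, with SOX9 at -1.41 at day 37 and SPP1 at -1.03 at day 50 the lowest of that list, named after their values were seen. The sum of the 8 measured lymphocyte markers ranged from 2.52 to 3.11 in runt livers and from 2.73 to 3.44 in control livers at day 37. At day 50 it ranged from 0.777 to 1.04 in runt livers and from 1.31 to 1.80 in control livers, all runts below all controls, and at day 110 from 1.77 to 1.97 in runt livers and from 1.29 to 1.70 in control livers, all runts above. The part of these cell types in the ALB difference was not tested.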

How the data were processed

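Liver RNA was labelled with Cy3 and hybridised to single-colour Agilent arrays, 1 per sample. Per the file headers, Feature Extraction 10.7.3.1 wrote each deposited intensity (processed signal, background-subtracted). A second set of deposited values, in log2 units, came from Partek, per the submitters' processing notes. Its columns shared 1 maximum of 18.5, and centring and scaling steps beyond that are not given in the sources used here. The table served as an alternative.

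Control and outlier spots were left out. The log2 intensity minus the array's 75th percentile was fitted with limma 3.58.1 (R 4.3.3), with a mean for each of 8 groups, 24 residual degrees of freedom and Benjamini-Hochberg adjustment over 28673 features. A probe entered when 3 or 4 arrays of some group were flagged well above background. The brighter probe stood for a gene in this table, and the second probe replaced it in a further fit. Changes between days passed at an adjusted p under 0.05 and at least 2-fold, and runt against control at an adjusted p under 0.05. All tests were two-sided. Exact tests and figures used Python 3.11.15 with scipy 1.17.1. The scripts were tested on simulated data. With 4 arrays a group, the number of arrays limits the precision.

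Gene names came from RefSeq accessions, matched without versions. ALB, AFP and the gene lists were chosen with earlier results of these data known. Genes named from a list were those that passed, at most 6 with the largest change. Genes named for a like course were the 5 highest and 5 lowest correlations, and the 5 highest over deviations. Some genes that these rules name are not reported here. Alternatives were normexp background correction, quantile and median scaling, the authors' table, other filters, the second probe, slide as a block or by set, a replicate block, an exact test and leaving out each array. The scanner files held no mean signal, so normexp ran on the median signal with an offset of 50.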

Additional observations from a re-analysis of the deposited data

Results flagged for a closer look

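The level of AFP probe A_72_P004546 in day 110 runt replicate 3 was 7.88, apart from the other 3 runt livers of that day, which lay between 8.38 and 8.46. Its gap to them was 0.854 of the whole range of the 4, past Dixon's 95% critical value. It was the only such value among 32 groups of probe, day and fetus type, and chance sets apart about 1 in 20. On probe A_72_P056601 the same liver read 8.79, next to 8.88 in replicate 4.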

How the results depend on the processing

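Across the alternatives other than leaving out 1 array, 453 of the values recomputed kept their direction and their side of the threshold, 44 changed sign, 15 newly passed and 12 no longer passed. The mean runt minus control difference in ALB kept its sign in all of them. The cause of the changes was not tested. With normexp, ALB at day 50 passed (-3.48), the control change of day 110 against day 37 did not (1.31), the correlation of ALB and AFP deviations passed (0.52), and day 110 against day 70 was 0.019 in controls and 0.14 in runts. With normexp the AFP runt minus control values were -0.42 at day 50, -0.14 at day 70, -0.038 at day 110 and -0.15 in the mean, the AFP course was -0.014 in controls at day 70 against day 50, and -0.24 and 0.27 in runts at day 50 against day 37 and day 70 against day 50, and the shifts of the AFP runt difference were 0.29 (day 70 minus day 50) and -0.052 (day 110 minus day 37). With quantile normalization and with the authors' deposited table, ALB at day 50 passed (-2.69 in both), the AFP F-test in controls passed (3.73 and 3.74), ALB in controls was -0.14 at day 70 against day 50 and 0.064 at day 110 against day 70 in both, AFP in controls was -0.015 and -0.012 at day 50 against day 37 and -0.070 and -0.072 at day 70 against day 50, and the AFP runt difference at day 37 was -0.047 and -0.044. With median scaling, AFP was -0.032 (controls, day 50 against day 37), 0.038 (runts, day 70 against day 50) and -0.023 (runt difference, day 110 minus day 37). On the second probes, ALB at day 50 passed (-3.75), the F-tests in controls passed for ALB (5.79) and AFP (4.33), AFP minus ALB at day 110 passed (1.00), AFP in controls was -0.15 at both early steps, the AFP runt difference was -0.26 at day 37 and shifted by 0.11 from day 50 to day 70, and the deviations correlated at -0.25. Testing probes well above background on all 32 arrays let ALB at day 50 pass (-2.73), and testing with no filter lost the control change of day 110 against day 37 (1.39), where fewer and more probes enter the adjustment.

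With slide as a fixed block, ALB lost 3 calls: control day 110 against day 37 (1.65), runt day 70 against day 50 (1.88) and the mean runt difference (-1.44). The AFP F-tests passed (7.59 in controls, 4.59 in runts), and signs changed for ALB in controls at day 110 against day 70 (0.11), AFP in runts at day 70 against day 50 (0.034) and the AFP runt difference at day 110 minus day 37 (-0.011, or -0.0019 with slide as a random block). Within slides 1 to 3, where many groups hold 1 array, ALB did not pass for control day 110 against day 37 (1.11), runt day 70 against day 50 (1.89) or the mean runt difference (-0.91), ALB was 0.52 for runt minus control at day 70 and -0.26 in controls at day 70 against day 50, and AFP was -0.11 in controls at day 70 against day 50, -0.20 and 0.18 in runts at day 50 against day 37 and day 70 against day 50, -0.10 and -0.061 for runt minus control at days 50 and 110, and shifted by 0.29 (day 70 minus day 50) and -0.39 (day 110 minus day 37). Within slides 4 to 9 the mean ALB runt difference lost its call (-1.77), ALB in runts at day 110 against day 70 was 0.27 and the AFP runt difference at day 70 was -0.13. The fixed slide block moved the number of features that passed in the mean runt comparison to 1, and the random block to 176, against 70 without a block. By the exact test, control day 110 against day 37 (1.39, exact p = 0.0571) did not pass, and runt day 70 against day 50 (2.44) and runt day 110 against day 37 (3.42) did not after adjustment, each with exact p = 0.0286, the smallest that 4 against 4 arrays can give.

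The labels give runt and control groups the same replicate numbers. Replicate number went with the slide. Replicate 1 lay on slides 4, 5 and 9, and replicate 2 on slides 6 and 7. Replicate 3 lay on slides 1 and 8, and replicate 4 on slides 2 and 3. Runt and control of the same day and number lay on different slides. Replicates 1, 2 and 4 each lay within 1 set of slides, so litter and slide set cannot be told apart there. Replicate 3 lay on both sets. Of 16 same-number pairs, 13 correlated above 0.1 in their deviations (range -0.09 to 0.42) and 10 of 16 had their best partner under the same number. All 4 pairs were above 0.1 at days 37 and 110, but not at days 50 and 70, and no label ties a number to a litter. With a replicate block within each day the features passing numbered 51 at day 50 and 186 in the mean, against 19 and 70. The mean ALB difference stayed at -1.53 under that block (limma adjusted p = 0.0254). A separate fit used a replicate block over all groups, which ties equal numbers of different days together. In that fit the AFP F-tests passed (5.26 in controls, 7.47 in runts). No other call on ALB or AFP changed under these blocks.

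Leaving out 1 array at a time moved the values as follows. ALB ranged from -2.99 to -1.83 for the runt difference at day 37, from -3.06 to -2.27 at day 50, from -0.62 to 0.029 at day 70, from 2.71 to 3.87 for runt day 110 against day 37, from 1.22 to 1.69 for control day 110 against day 37, from -0.30 to 0.32 for control day 110 against day 70, from -0.29 to 0.33 for control day 70 against day 50, and from -0.57 to 0.065 for runt day 110 against day 70. AFP ranged from -0.034 to 0.55 (runt difference, day 50), -0.0096 to 0.31 (day 70), -0.0067 to 0.30 (control day 50 against day 37), -0.13 to 0.18 (control day 70 against day 50), -0.040 to 0.54 (runt day 50 against day 37), -0.36 to 0.22 (runt day 70 against day 50), -0.40 to 0.18 (runt difference, day 70 minus day 50) and -0.16 to 0.22 (day 110 minus day 37). AFP minus ALB ranged from 2.01 to 3.16 at day 37, from 2.56 to 3.54 at day 50 and from 0.50 to 0.86 at day 110, and no longer passed at day 37 or day 50 without any 1 control of that day (adjusted p = 0.08). Runt values still lay above control values there, and leaving out 1 runt of that day instead kept the adjusted p at 0.04. At day 110 AFP minus ALB passed without control replicate 4. The deviations correlated at 0.20 to 0.41, and passed without day 50 runt replicate 1. The mean ALB runt difference stayed past the threshold without any one array (-1.65 to -1.35).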
